A study of Homo sapiens with 6 samples.

Results

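The genes of polyamine metabolism described here are the 10 rows of the gene count table with the symbols ODC1, AMD1, SRM, SMS, SAT1, SMOX, PAOX, AZIN1, OAZ1 and OAZ2, out of 58735 genes. They were chosen by symbol, for their role in making, breaking down or regulating polyamines. The libraries were made from VCaP, a human line from a prostate cancer metastasis that carries a TMPRSS2-ERG fusion. One group of 3 libraries came from cells stably infected with a short hairpin RNA against NEDD9 (shNEDD9), a scaffold protein of focal adhesions, and the other group of 3 came from cells that carried a non-targeting hairpin (shNTC). Both were cultured in DMEM with 10% foetal bovine serum. The triplicates are described as biological, but the labels do not say how many hairpins or separate infections each group represents, and the p-values below measure the spread between these libraries.

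Polyamines (putrescine, spermidine and spermine) are small positively charged molecules that bind nucleic acids and are needed for growth. ODC1 makes putrescine from ornithine, AMD1 makes the aminopropyl donor from S-adenosylmethionine, and SRM and SMS use that donor to build spermidine and spermine. SAT1 acetylates spermidine and spermine so that they can be exported or oxidised by PAOX, while SMOX oxidises spermine directly. The antizymes OAZ1 and OAZ2 bind ODC1 and send it to the proteasome, and AZIN1, an ODC1-like protein without enzyme activity, binds the antizymes in its place. Prostate epithelium is known for its very high polyamine production, which feeds the seminal fluid.

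Total counts ranged from 5956486 to 9902002 in shNEDD9 and from 3217276 to 7492244 in shNTC libraries, so that shNTC replicate 2 is the least precise. NEDD9 itself averaged 137 ± 1.03 CPM in shNEDD9 and 355.7 ± 14.2 CPM in shNTC (CPM, counts scaled to the library total, SD, n = 3 each), with no overlap between the groups. Its log2 fold change was -1.39 (SE 0.04), with an adjusted p below 1e-300 by the quasi-likelihood method of edgeR, corrected by Benjamini-Hochberg over all tested genes. Of 10 markers of prostate luminal cells, all tested, 4 rose (KLK2 among them), 4 fell (KRT8 among them) and 2 did not pass the test, with a median log2 fold change of 0.00. Their summed level, 18156 to 18686 CPM in shNEDD9 against 15430 to 15709 CPM in shNTC, was mostly KLK2, at 11242 CPM in shNEDD9 and 9403 CPM in shNTC. ERG, the fusion partner in VCaP, was at 188.5 to 193.9 CPM in shNEDD9 against 249.8 to 267.5 CPM in shNTC. The 3 basal markers summed to 2.72 to 3.82 against 2.15 to 2.83 CPM in the same order, the 3 endothelial markers to 1.61 to 2.35 against 1.21 to 2.83 CPM, and the 4 leukocyte markers to 4.53 to 5.24 against 3.36 to 5.34 CPM. These sums were nearly all KRT14 (79 counts over the shNEDD9 and 40 over the shNTC libraries), VWF (41 and 24 counts) and CD14 (113 and 60 counts), none of which passed the test, while KRT5, CDH5 and CD3E had 0 counts in all 6 libraries. The 5 fibroblast markers summed to 47.5 to 53.4 CPM in shNEDD9 and 25.95 to 33.3 CPM in shNTC. This difference was LUM, at 45.2 CPM in shNEDD9 and 19.2 CPM in shNTC, whereas COL1A1 fell to 4.63 CPM in shNEDD9 against 7.23 CPM in shNTC and COL1A2, COL3A1 and DCN, too low to test, averaged 0.161 to 0.349 CPM in shNEDD9 and 0.239 to 2.08 CPM in shNTC. The part of these markers in the results was not tested.

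The data showed one large change among many small ones. SAT1, the catabolic acetyltransferase gene, was 6.25-fold lower in shNEDD9, while ODC1, the entry enzyme of the pathway, was 1.61-fold higher. SMS and SRM, which build spermine and spermidine, were 1.45-fold and 1.38-fold higher. AMD1, AZIN1 and OAZ1 rose by 1.07-fold to 1.19-fold, OAZ2 was 1.32-fold lower, and SMOX and PAOX did not pass the test. In bulk RNA of this kind, less RNA per cell and fewer cells that express a gene cannot be told apart.

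All 10 genes passed the filter on low counts, and 8 of them passed an adjusted p under 0.05, 6 higher and 2 lower. The share of all 13958 tested genes that passed was 71.4%, with 35.5% higher and 35.9% lower, and among the 9972 genes that averaged 10 CPM or more it was 78.6%, with 40.1% higher and 38.5% lower. The number of polyamine genes called was therefore close to the background. The median log2 fold change of the 10 genes was 0.25, against 0.004 for all tested genes, and the median absolute value was 0.41 against 0.42. A change of at least 2-fold was reached by 1 polyamine gene, SAT1; of all tested genes, 9.22% passed with such a decrease and 7.67% with such an increase.

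**Figure D1:**
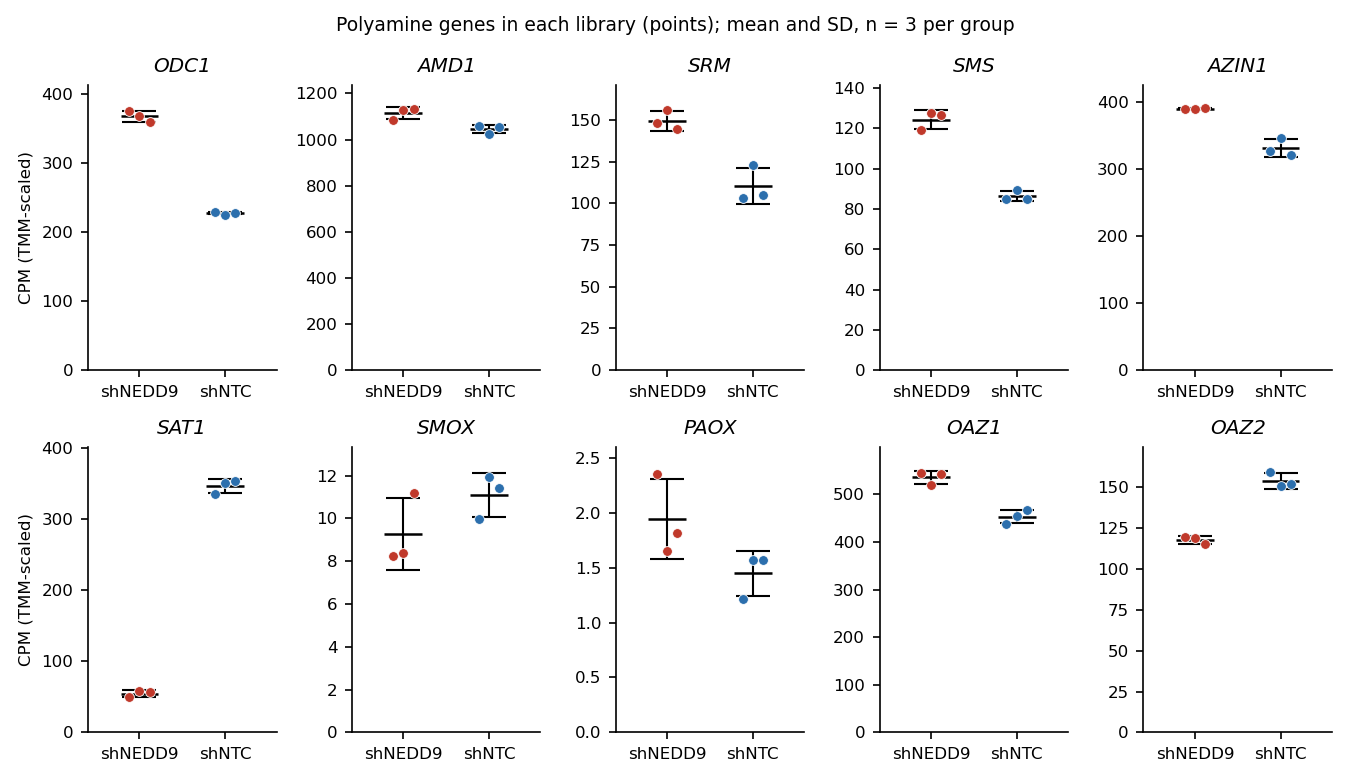
Level of each polyamine gene in CPM (linear axes from 0) in the 3 shNEDD9 (red) and 3 shNTC (blue) libraries, with bars for mean and SD. SAT1 sits at 49.9 to 57.6 CPM in shNEDD9 and 335.7 to 354.2 CPM in shNTC, and the SMOX libraries overlap.

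SAT1 (ENSG00000130066, GRCh38 chromosome X, 23783173 to 23786226, plus strand) encodes spermidine/spermine N1-acetyltransferase, a short-lived enzyme that polyamines themselves induce. Its level was 49.9, 57.6 and 56.9 CPM in the shNEDD9 libraries, against 335.7, 351.3 and 354.2 CPM in the shNTC libraries. Each shNEDD9 library was far below the lowest shNTC library, on 1314 counts over the shNEDD9 and 5877 over the shNTC libraries. The log2 fold change was -2.64 (SE 0.04, edgeR adjusted p below 1e-300), and it ranged from -2.71 to -2.59 over 15 alternative settings. Of all tested genes, 1.22% had an equal or lower log2 fold change. SAT2, a related acetyltransferase gene, also fell, to 23.5 ± 1.85 CPM in shNEDD9 against 35.8 ± 1.95 CPM in shNTC (n = 3 each, log2 fold change -0.58, edgeR adjusted p = 3.37e-10).

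SAT1 and SMS lie 1.79 Mb apart on the short arm of the X chromosome and moved in opposite directions. The neighbours of SAT1 were therefore looked at for a shift of the whole region. Of 9 other tested genes within 1 Mb of SAT1, 7 rose and 1 fell, and their median log2 fold change was 0.38, with a range from -0.90 (ACOT9, a thioesterase gene) to 0.97 (POLA1, a DNA polymerase subunit gene). ACOT9 was the 1 neighbour that fell, and by less than SAT1. Of all tested genes, 35.5% rose and 35.9% fell. Of 3 tested neighbours of SMS, MBTPS2 and CNKSR2 rose and YY2, at -0.05, missed the threshold (edgeR adjusted p = 0.861), with a median of 0.46 beside the 0.54 of SMS itself.

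**Figure D2:**
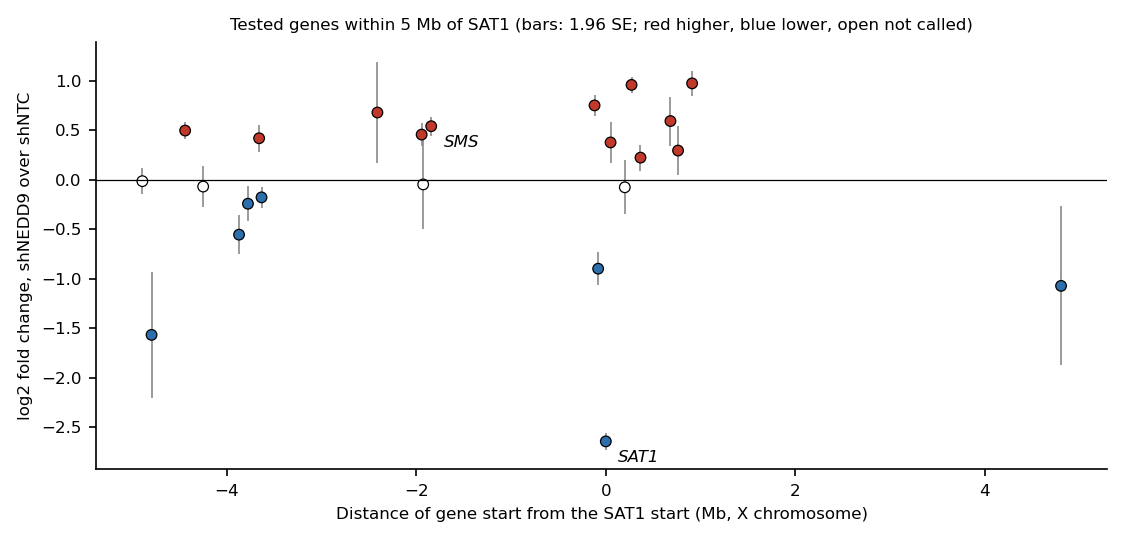
Log2 fold change (shNEDD9 over shNTC) of the tested genes within 5 Mb of SAT1 against distance of their start from that of SAT1 in Mb, with bars for the approximate 95% interval. SAT1 stands at -2.64, while SMS at 0.54 and 7 of the 9 genes within 1 Mb of SAT1 lie above 0 and passed the test. Of all tested genes, 35.5% passed as higher.

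ODC1 (ENSG00000115758, chromosome 2, 10439968 to 10448504, minus strand) encodes ornithine decarboxylase, a classical MYC target and androgen-induced gene in the prostate. It stood at 375, 368.3 and 358.8 CPM in the shNEDD9 libraries, against 228.5, 225.3 and 227.4 CPM in the shNTC libraries. Every shNEDD9 library was above the highest shNTC library. The log2 fold change was 0.69 (SE 0.03, edgeR adjusted p = 4.76e-97), and 14.4% of tested genes had a higher one.

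SRM (ENSG00000116649, chromosome 1, 11054584 to 11060024, minus strand), the spermidine synthase gene, had 148, 155.7 and 144.4 CPM in shNEDD9, against 103.3, 122.8 and 105.2 CPM in shNTC. The shallowest shNTC library was the highest of its group and still below all 3 shNEDD9 libraries. The log2 fold change was 0.47 (SE 0.05, edgeR adjusted p = 4.92e-24). SMS (ENSG00000102172, chromosome X, 21940573 to 21994835, plus strand), the spermine synthase gene, had 119, 127.6 and 126.4 CPM in shNEDD9, against 84.7, 89.5 and 85.1 CPM in shNTC. The groups were again apart, with a log2 fold change of 0.54 (SE 0.05, edgeR adjusted p = 1.05e-26). These 2 enzymes act in sequence and kept nearly the same ratio: SMS over SRM, on the TPM scale (counts per exon length, scaled to the same sum in each library), averaged 0.732 ± 0.033 in shNEDD9 and 0.691 ± 0.044 in shNTC (n = 3 each, a pair chosen after its values were seen).

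The RefSeq promoter windows (GRCh38.p14, 250 bases before to 50 after the start) of SRM, SMS and SAT1 are shown because the first 2 genes rose and the third fell the most. Capitals mark CACGTG, the E-box that MYC and other factors can bind, and TATAAA, both searched on either strand (CACGTG reads the same on both). The windows are chr1:11059969-11060268 on the minus strand, chrX:21940459-21940758 on the plus strand and chrX:23782923-23783222 on the plus strand, in this order.
SRM: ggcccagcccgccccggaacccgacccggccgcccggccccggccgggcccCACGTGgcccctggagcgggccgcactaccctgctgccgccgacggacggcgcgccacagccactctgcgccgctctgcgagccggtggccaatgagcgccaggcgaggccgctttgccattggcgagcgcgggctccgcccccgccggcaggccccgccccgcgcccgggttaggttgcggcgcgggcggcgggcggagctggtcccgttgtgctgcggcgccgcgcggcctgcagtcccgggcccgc
SMS: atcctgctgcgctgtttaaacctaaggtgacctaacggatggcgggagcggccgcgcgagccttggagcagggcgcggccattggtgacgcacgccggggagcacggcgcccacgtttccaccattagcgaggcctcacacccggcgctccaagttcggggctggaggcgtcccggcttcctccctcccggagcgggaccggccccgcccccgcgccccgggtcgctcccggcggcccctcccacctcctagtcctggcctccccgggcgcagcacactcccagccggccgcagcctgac
SAT1: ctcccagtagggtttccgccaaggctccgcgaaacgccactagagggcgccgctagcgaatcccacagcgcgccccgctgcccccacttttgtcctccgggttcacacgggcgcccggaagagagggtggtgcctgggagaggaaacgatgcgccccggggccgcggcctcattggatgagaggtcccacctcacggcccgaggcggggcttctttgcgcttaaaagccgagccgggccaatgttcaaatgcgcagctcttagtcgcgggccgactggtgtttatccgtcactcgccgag
CACGTG was found in the SRM window, with its first base at position -199 from the RefSeq start, and in neither of the other 2. Windows were on hand for 5 of the 10 genes (SRM, SMS, SAT1, OAZ1 and OAZ2), and SRM was the 1 of them with CACGTG, which 7.26% of 35116 promoter windows of this length hold. TATAAA was in none of the 3 printed windows (0 sites), and 11.5% of all windows hold it. The windows of SRM, SMS and SAT1 were 82%, 73.3% and 66% G or C, against a median of 58.7%.

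AMD1 (ENSG00000123505, chromosome 6, 110874770 to 110895713, plus strand), the S-adenosylmethionine decarboxylase gene, had the most counts of the 10. It stood at 1084, 1129 and 1131 CPM in shNEDD9, against 1057, 1024 and 1054 CPM in shNTC. The groups did not overlap, but the gap between them was narrow. The log2 fold change was 0.09 (SE 0.02, edgeR adjusted p = 0.000144), a change of 1.07-fold. Among the 15 alternatives the lowest adjusted p for AMD1 was 1.34e-06 and the highest 0.00257.

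**Figure D3:**
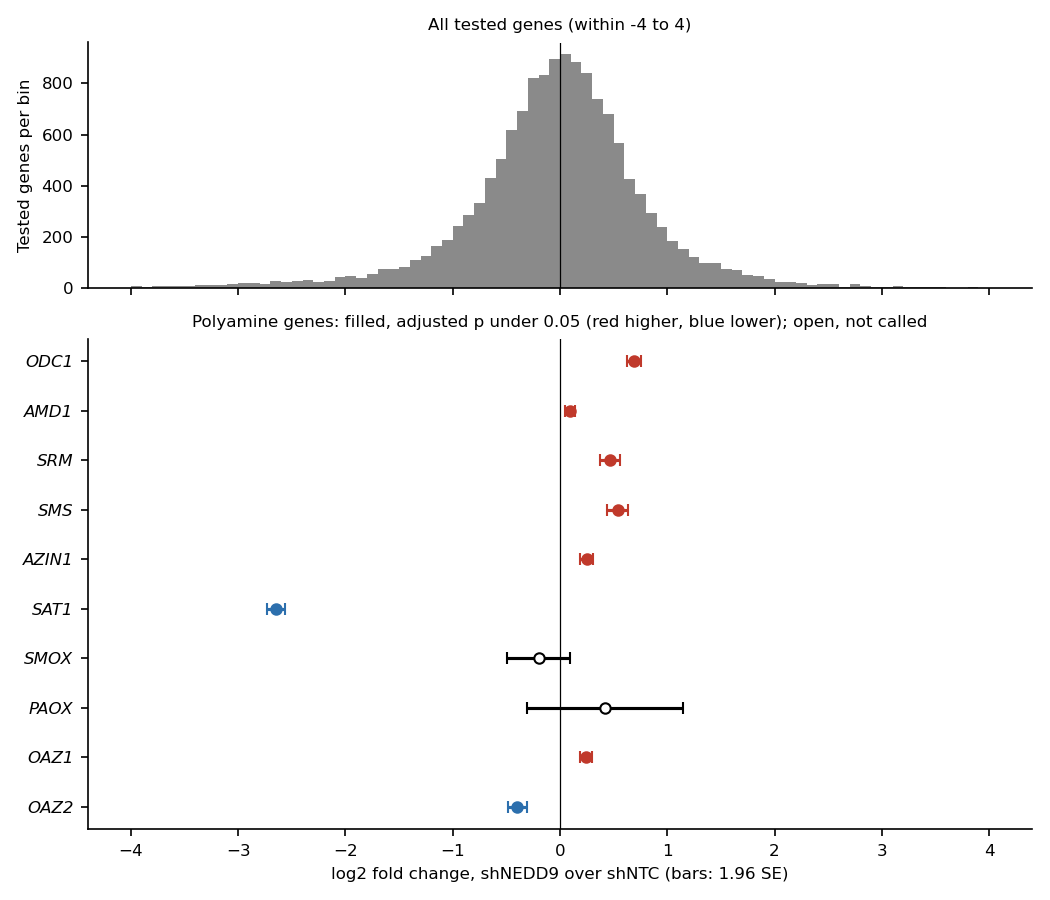
Top, number of tested genes in bins of log2 fold change (shNEDD9 over shNTC). Bottom, the 10 polyamine genes on the same axis with bars for the approximate 95% interval: SAT1 at -2.64 stands in the lower tail, and the called genes other than SAT1 lie between -0.40 and 0.69.

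The antizyme genes changed in both directions. OAZ1 (ENSG00000104904, chromosome 19, 2269509 to 2273490, plus strand), the main antizyme gene, had 545.1, 519.1 and 542.3 CPM in shNEDD9, against 438.1, 455 and 466.4 CPM in shNTC. The groups did not overlap (log2 fold change 0.24, SE 0.03, edgeR adjusted p = 5.40e-18). OAZ2 (ENSG00000180304, chromosome 15, 64687573 to 64703281, minus strand), a second and less abundant antizyme gene, had 119.7, 118.9 and 115.1 CPM in shNEDD9, against 159.6, 150.8 and 151.7 CPM in shNTC. It fell with no overlap between the groups (log2 fold change -0.40, SE 0.04, edgeR adjusted p = 5.46e-19). OAZ3, the testis antizyme gene, was also lower, at 5.71 ± 0.89 CPM in shNEDD9 against 10.8 ± 1.82 CPM in shNTC (n = 3 each, log2 fold change -0.93, edgeR adjusted p = 1.09e-07), although 29% of its exon bases overlap other genes. With SAT2, it was 1 of 2 tested genes of the 4 related antizyme, inhibitor and acetyltransferase genes, and both fell.

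Antizyme protein depends on a programmed +1 frameshift, in which polyamines make the ribosome slip past a stop codon inside the reading frame, so that RNA counts do not give antizyme protein. GENCODE 29 marks this site as a coding sequence with 1 skipped base, at chromosome 19 position 2271443 in OAZ1 and chromosome 15 position 64691515 in OAZ2 (GRCh38). The 30 bases around the site are printed because the 2 antizyme genes moved in opposite directions while sharing it; capitals mark the stop codon, whose first base is the skipped one.
OAZ1: ctcggtggtgctccTGAtgcccctcaccca
OAZ2: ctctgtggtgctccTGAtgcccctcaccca
Of the 30 bases, 29 are identical between the genes.

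AZIN1 (ENSG00000155096, chromosome 8, 102826357 to 102893864, minus strand), the antizyme inhibitor gene, had 390.2, 389.3 and 391 CPM in shNEDD9, against 326.4, 345.9 and 320.4 CPM in shNTC. Its log2 fold change was 0.25 (SE 0.03, edgeR adjusted p = 8.21e-16). The shNEDD9 libraries were nearly equal and all above the shNTC libraries.

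The 2 oxidase genes were the least expressed members. SMOX (ENSG00000088826, chromosome 20, 4120980 to 4187747, plus strand) had 8.22, 8.39 and 11.2 CPM in shNEDD9, against 9.95, 11.9 and 11.4 CPM in shNTC. The third shNEDD9 library lay inside the shNTC range, and SMOX was not called (log2 fold change -0.20, approximate 95% interval -0.49 to 0.10, edgeR adjusted p = 0.232). It passed without shNEDD9 replicate 3 (log2 fold change -0.38, edgeR adjusted p = 0.0467), and in the other alternatives it missed the threshold, with values up to 0.562. PAOX (ENSG00000148832, chromosome 10, 133379234 to 133391694, plus strand) rested on 14, 13 and 18 counts in the shNEDD9 libraries and 9, 5 and 10 counts in the shNTC libraries. Its CPM values did not overlap, which was true of 71.8% of tested genes, but the counting error was wide and it was not called (log2 fold change 0.42, approximate 95% interval -0.30 to 1.15, edgeR adjusted p = 0.299). These intervals allow a decrease of SMOX to 0.712-fold and an increase of PAOX to 2.21-fold.

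Levels were compared between genes on the TPM scale, which divides counts by the length of a gene's exons. In shNEDD9, AMD1 at 628.6 ± 16.6 and OAZ1 at 617.5 ± 13.8 TPM overlapped at the top, ODC1 followed at 490.4 ± 11.1 TPM, and SAT1 was seventh at 86.9 ± 7.02 TPM. In shNTC, AMD1 was highest at 590.5 ± 11.7 TPM (SD, n = 3), followed by SAT1 at 551.6 ± 13.2 and OAZ1 at 523.7 ± 13.97 TPM, whose libraries overlapped, and then by ODC1 at 303.8 ± 3.23 TPM. SRM (311.8 ± 13.3 TPM in shNEDD9, 231 ± 22.2 TPM in shNTC), AZIN1 (240.6 ± 0.63 and 204.5 ± 8.27 TPM) and SMS (228.1 ± 9.19 and 159 ± 4.72 TPM) kept this order in both groups, with no overlap between neighbours. With this length OAZ2, SMOX and PAOX came last in both groups, at 60.9 ± 1.38, 12.5 ± 2.22 and 3.37 ± 0.62 TPM in shNEDD9, against 79.7 ± 2.88, 15 ± 1.33 and 2.53 ± 0.35 TPM in shNTC. The order depends on the exon length used, since the union of exons is longer than the main transcript, with 3436 against 1148 bases in OAZ1 and 7671 against 1934 bases in OAZ2. With the length of the APPRIS principal transcript (the main coding transcript), chosen after the data were seen, OAZ1 was first in both groups (1142 TPM in shNEDD9, 1000 TPM in shNTC), and SAT1 was eighth in shNEDD9 (126 TPM) and second in shNTC (825.6 TPM). OAZ2 was then seventh in shNEDD9 (149.3 TPM), above SAT1, and sixth in shNTC (201.8 TPM), above AZIN1 and SMS.

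Summed over the 10 genes, the level was 2657, 2706 and 2679 TPM in shNEDD9 and 2629, 2693 and 2663 TPM in shNTC, and the groups overlapped. The direction of this sum depends on the length: with the principal transcript it was 3196, 3241 and 3226 TPM in shNEDD9 against 3503, 3571 and 3568 TPM in shNTC, while without length the 10 genes took 0.284 to 0.29% of all counts in shNEDD9 and 0.272 to 0.275% in shNTC. SAT1 took 3.24 ± 0.24% of this sum in shNEDD9 and 20.7 ± 0.33% in shNTC (SD, n = 3 each), while ODC1 took 18.3 ± 0.47% and 11.4 ± 0.26%. With the principal transcript SAT1 took 3.57 to 4.11% in shNEDD9 and 22.9 to 23.5% in shNTC.

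The ratio of ODC1 to SAT1, an RNA-level comparison of the first synthetic with the first catabolic enzyme, was 6.33, 5.38 and 5.31 in the shNEDD9 libraries, against 0.573, 0.54 and 0.54 in the shNTC libraries. The mean was 10.3-fold higher in shNEDD9, and with the principal transcript lengths the ratios averaged 2.71 ± 0.27 in shNEDD9 and 0.263 ± 0.009 in shNTC. ODC1 over OAZ1 averaged 0.794 ± 0.028 in shNEDD9 and 0.58 ± 0.021 in shNTC, with no overlap. AZIN1 over OAZ1 averaged 0.39 ± 0.0098 in shNEDD9 and 0.391 ± 0.021 in shNTC, a difference smaller than the spread between libraries. AMD1 over SRM averaged 2.02 ± 0.086 in shNEDD9 and 2.57 ± 0.28 in shNTC, and SMOX over PAOX 3.8 ± 1 and 5.96 ± 0.36, the second pair on few counts. With the principal transcript lengths ODC1 over OAZ1 averaged 0.297 ± 0.01 in shNEDD9 and 0.217 ± 0.0077 in shNTC, and AZIN1 over OAZ1 0.177 ± 0.0045 and 0.178 ± 0.0094. The values of such ratios therefore depend on the length. A change of length multiplies a ratio by the same factor in every library, so it cannot alter the fold between groups and does not check it. These ratios are descriptions and were not tested.

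**Figure D4:**
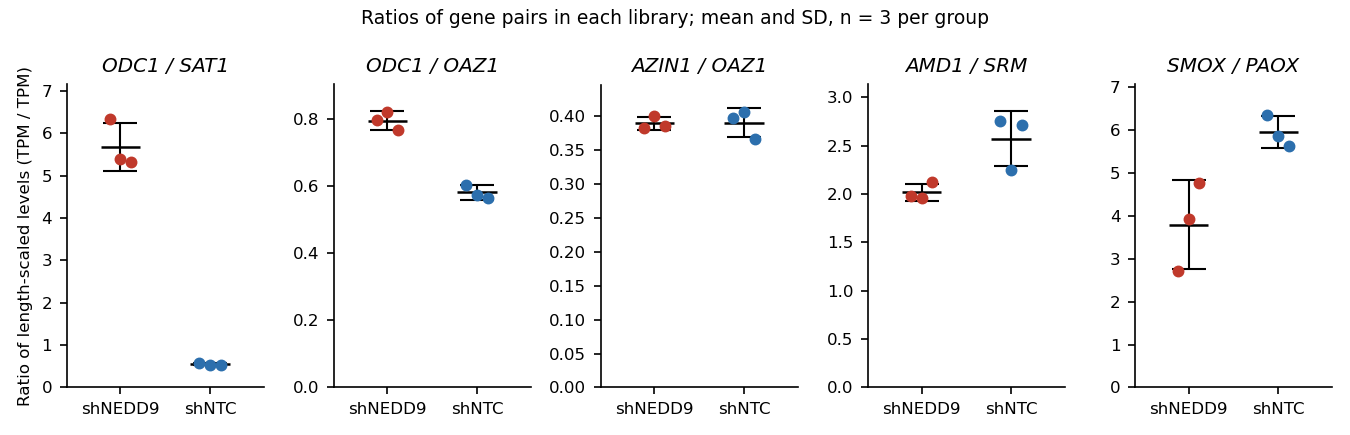
Ratios of TPM of 5 pairs of polyamine genes in each shNEDD9 (red) and shNTC (blue) library, with mean and SD (linear axes from 0). ODC1 over SAT1 lies between 5.31 and 6.33 in shNEDD9 and between 0.54 and 0.573 in shNTC, whereas AZIN1 over OAZ1 overlaps between the groups.

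Around the 10 genes, 42 further genes of 5 lists feed the pathway, use its products or transport them. Of these 32 were tested, of which 14 rose and 6 fell, and their median log2 fold change was 0.10. The 20 called genes are 62.5% of those tested, against 71.4% of all tested genes, and the counts of the single lists, of 2 to 11 tested genes, are to be read against the same share. The lists were put together with earlier results of these data known, so that their counts describe and do not test.

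Hypusination is the modification through which spermidine activates the translation factor eIF5A. Of its 5 genes, 3 rose while DHPS and EIF5A2 did not pass the test, and the median log2 fold change was 0.68. EIF5A, the factor itself, was at 336.7 ± 6.22 CPM in shNEDD9 and 212.5 ± 11.2 CPM in shNTC (n = 3 each, log2 fold change 0.68, SE 0.03, edgeR adjusted p = 1.08e-88). DOHH, the second enzyme of the modification, was 1.65-fold higher, at 18.8 ± 2.60 CPM in shNEDD9 against 11.9 ± 2.77 CPM in shNTC. EIF5AL1 was 1.66-fold higher as well, but it is a near-identical copy of EIF5A and may share its reads. DHPS, the first enzyme, had only 44 counts over the shNEDD9 and 41 over the shNTC libraries and was not called (edgeR adjusted p = 0.29). It shares 41.8% of its exon bases with other genes, so that its count is uncertain.

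Of 4 tested genes of ornithine supply, 1 rose and 1 fell. ALDH18A1, which makes the precursor of proline and ornithine, was at 137.3 ± 7.38 CPM in shNEDD9 and 114.2 ± 2.69 CPM in shNTC (log2 fold change 0.27, edgeR adjusted p = 4.92e-09). ARG2, the mitochondrial arginase gene, was at 40.8 ± 1.17 CPM in shNEDD9 and 52.4 ± 4.04 CPM in shNTC (log2 fold change -0.38, edgeR adjusted p = 2.17e-07), and 37.4% of its exon bases overlap VTI1B on the other strand.

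Of 11 tested genes of the methionine cycle and of methylthioadenosine salvage, which recycles the by-product of SRM and SMS, 5 rose and 6 did not pass the test, with a median of 0.12. AHCY, which clears S-adenosylhomocysteine, was 2.18-fold higher at 550 ± 11.1 CPM in shNEDD9 against 253.1 ± 7.79 CPM in shNTC (edgeR adjusted p = 1.38e-294). The salvage genes MTAP and ADI1, its first and a later step, were each 1.30-fold higher, at 36.3 ± 3.25 and 199.2 ± 5.43 CPM in shNEDD9 against 27.6 ± 1.98 and 151.6 ± 5.98 CPM in shNTC. MAT2A and MAT1A, which make S-adenosylmethionine, were near the threshold (log2 fold change 0.08 and 0.45, edgeR adjusted p = 0.0272 and 0.0291). Their calls were lost in 6 of 15 alternatives each, including DESeq2, the replicate block and the fits without shNEDD9 replicate 2, shNEDD9 replicate 3 or shNTC replicate 1; MAT2A was also lost without shNTC replicate 3 (edgeR adjusted p = 0.11). Over the alternatives the adjusted p of MAT1A reached 0.315 and that of MAT2A 0.129.

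Transport genes had the widest range. Of 10 tested genes, 5 rose and 3 fell, with a median of 0.16. SLC7A1, a cationic amino acid transporter that brings in arginine, was 3.73-fold higher at 603.2 ± 10.4 CPM in shNEDD9 against 159.9 ± 7.66 CPM in shNTC (n = 3 each, edgeR adjusted p below 1e-300). SLC7A2, of the same family, was 1.53-fold higher, and SLC3A2, the heavy chain of amino acid exchangers that has also been linked to polyamine export, was 1.92-fold higher at 379 ± 1.77 CPM in shNEDD9 against 197.1 ± 4.91 CPM in shNTC. ATP13A3, a polyamine transporter of the P5B ATPase family, was lower, at 194.7 ± 1.83 CPM in shNEDD9 against 236.5 ± 13.4 CPM in shNTC (log2 fold change -0.30, edgeR adjusted p = 6.95e-16). SLC22A4, an organic cation transporter, was lower on 14 counts over the shNEDD9 and 47 over the shNTC libraries (log2 fold change -2.19, edgeR adjusted p = 1.16e-07). SLC22A16, a carnitine transporter that lies within 1 Mb of AMD1, was higher on 59 and 14 counts in the same order (log2 fold change 1.57, edgeR adjusted p = 0.000124), and its log2 fold change was 2.21 without shNTC replicate 1. Neither SLC22A4 nor SLC22A16 was tested after thinning to the smallest library, where both fell below the filter on low counts.

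**Figure D5:**
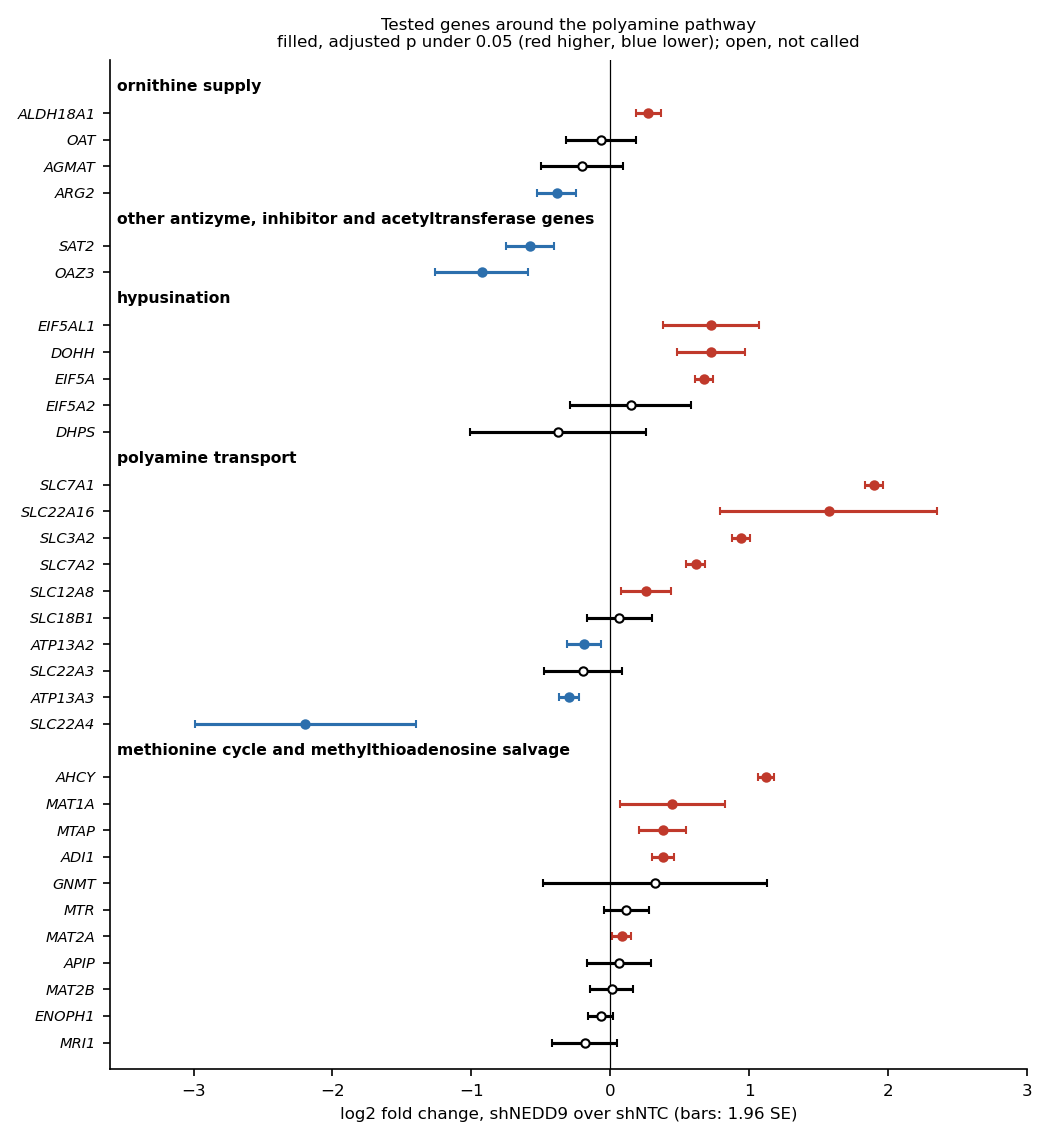
Log2 fold change (shNEDD9 over shNTC, bars for the approximate 95% interval) of the 32 tested genes of 5 lists around the polyamine pathway. SLC7A1 is the highest and SLC22A4 at -2.19 the lowest.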

How the data were processed

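Per the submitters' processing notes, cutadapt 1.9, FastQC 0.11.5, STAR 2.5.3a, Subread 1.6.2 and featureCounts were used, with hg19 and GRCh38 named as builds; the role of each, the annotation release and the strand setting are not given in the sources used here. The authors deposited whole-number counts of reads per gene, not normalised, 1 column per library. Per the labels' protocols, the library kit was stranded and took total RNA. The table's 1 row with no gene identifier was dropped and 27 symbols turned into dates were restored; all 58735 identifiers occur in GENCODE 29 (GRCh38), which gave coordinates and exon lengths.

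Counts were tested with edgeR 4.0.16 (R 4.3.3; TMM, filterByExpr with a minimum count of 10, glmQLFit with robust estimation, glmQLFTest) on 3 shNEDD9 against 3 shNTC libraries without covariates. p-values were adjusted by Benjamini-Hochberg over 13958 tested genes, and the threshold was 0.05. The SE is the absolute unmoderated log2 fold change over the square root of F, and approximate 95% intervals take the normal multiple of it. A count of 3 equals 0.303 to 0.932 CPM; floors and intervals cover counting error and library spread only. The procedure was also run on simulated data in which few genes changed. That run does not cover scaling or false calls where as many genes change as here. The members and lists were chosen with earlier results of these data known. Named genes were NEDD9, the 10 members and up to 6 called genes of each other list with the largest changes that averaged 1 CPM or more. Alternatives were other scalings and filters, DESeq2 1.42.0, limma-voom (limma 3.58.1), a replicate block, thinning and leaving out each library. Levels per length (TPM) used the union of exons, with the APPRIS principal transcript length as an alternative chosen after seeing the data. Replicate pairs differed by little more than counting noise (chi-square per degree of freedom 1.14 to 1.21). The spread beyond counting, as the common coefficient of variation of edgeR, was 1.65%. Each library was counted as 1 sample, and whether the libraries vary as separate infections would is not known.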

Additional observations from a re-analysis of the deposited data

How the results depend on the processing

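The counts of polyamine genes that rose (6) and fell (2) were the same under 15 alternatives, except that SMOX joined the lower genes without shNEDD9 replicate 3, which made 3. Over these alternatives the log2 fold change of SAT1 ranged from -2.71 to -2.59, of ODC1 from 0.68 to 0.71, of SRM from 0.42 to 0.52, of SMS from 0.50 to 0.57, of AZIN1 from 0.23 to 0.27, of OAZ1 from 0.21 to 0.27 and of OAZ2 from -0.42 to -0.36. PAOX ranged from 0.27 to 0.52 over 14 alternatives and was not tested after thinning to 3217276 counts, where it, SLC22A4 and SLC22A16 fell below the filter, so that the calls of the last 2 were not available there. In the wider lists 11 to 14 genes rose and 4 to 7 fell. Over all genes 4104 to 5111 rose and 4126 to 5061 fell. The median log2 fold change stayed between 0.002 and 0.021 under every scaling and setting run. Scaling itself sets where most genes centre, so this median cannot show whether the scaling is right. The replicate numbers of the titles gave no sign of pairing. Deviations of same-numbered libraries correlated at -0.033, 0.006 and 0.028 over 9972 genes, and those of differently numbered libraries at -0.04 to 0.029. Such deviations hold little beyond counting noise, so this check cannot decide whether the libraries were paired. With the replicate block 4881 genes rose and 4953 fell, among them the same number of polyamine genes (6 and 2). Levels per length moved with the length used, as given for OAZ1, OAZ2, SAT1, AMD1 and ODC1, for the sum of the 10 genes and for the ratios. PAOX and SMOX are limited by their low counts.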

Other observations

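The positions of the other polyamine genes were examined in the same way as that of SAT1. Of 17 tested genes within 1 Mb of ODC1, 7 rose and 1 fell (median log2 fold change 0.10), and the highest was RRM2, a ribonucleotide reductase subunit gene, at 1.32. Around AZIN1, 1 of 12 rose and 5 fell (median -0.17), while AZIN1 itself stood at 0.25. Around OAZ2, 8 of 24 rose and 8 fell (median 0.02), and around OAZ1, 27 of 56 rose and 11 fell (median 0.20). Around AMD1, 7 of 14 rose and 1 fell (median 0.22), and around SRM, 11 of 25 rose and 6 fell (median 0.15). Around SMOX, 8 of 22 rose and 12 fell (median -0.15), and around PAOX, 3 of 9 rose and 2 fell (median 0.07). Of all tested genes 35.5% rose and 35.9% fell, and these counts are to be read against those shares. Whether any region was shifted was not tested.

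AZIN1-AS1, the antisense gene of AZIN1, held 130 counts over the 6 libraries, 0.876% of those of AZIN1, and overlaps 5.35% of its exon bases. The pseudogene rows AMD1P1, AMD1P2, AMD1P4, SRMP1 and SRMP2 had 0 counts in all libraries, and AMD1P3 had 2. Exons of ODC1, AMD1, SRM, SMS, SAT1 and SMOX overlap no exon of another gene in GENCODE 29, while overlaps cover 6.87% of OAZ1, 6.94% of PAOX and 7.22% of OAZ2.

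The RefSeq promoter window of OAZ1 (chr19:2269236-2269535, plus strand) holds TATAAA 1 time, with its first base at position 7 from the RefSeq start. This start lies before the GENCODE start of OAZ1 at 2269509, so the position of the motif depends on the start used. The window of OAZ2 holds neither TATAAA nor CACGTG.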
